A study of Homo sapiens with 10 samples.

Results

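The genes described here are 43 genes of mitosis and the kinetochore, chosen by name: the mitotic cyclins and kinases, the spindle checkpoint, the outer kinetochore, mitotic kinesins, spindle and midzone proteins, the anaphase switch, condensin and chromosome proteins, and cytokinesis factors. All 43 have a row among the 22626 of the deposited count table, and all 43 passed the filter on low counts. ARPE-19 is an established line of human retinal pigment epithelium (RPE), the pigmented layer behind the photoreceptors. The control group (labelled MG, n = 5) had 5.5 mM D-glucose with 32 mM mannitol for 48 h, and the high glucose (HG) group (n = 5) had 37.5 mM D-glucose without the sugar alcohol for 48 h. Both groups are this line, with no transgene named in the labels, and a difference between them can belong to the glucose or to the mannitol, which cannot be told apart. The study asked what high glucose does to RPE cells, cellular senescence included. The control libraries carry replicate numbers (MG1 to MG5), while the HG libraries are named by their deposited columns (HG_1 to HG_5), because the sample titles use letters and tie a column to its group only.

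A dividing cell passes through mitosis in a fixed order. The kinase CDK1, bound to cyclin B, drives entry, and the chromosomes are compacted by condensin and attached through their kinetochores, the protein plates built on each centromere, to the microtubules of the spindle. A checkpoint holds the anaphase-promoting complex in check until every kinetochore is attached. Then securin and cyclin B are destroyed, separase cuts the cohesin rings that hold sister chromatids, and the cell divides. Many of these genes are transcribed together late in the cell cycle, through the CHR element (cell cycle genes homology region), bound by complexes that hold LIN54 with B-MYB and FOXM1 or with the repressors of the DREAM complex, and through CCAAT boxes, bound by NF-Y. Adult RPE hardly divides in the eye, whereas ARPE-19 cells proliferate in culture.

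The shared promoter words are shown first, because the genes were chosen by function and not by sequence. RefSeq promoters (GRCh38.p14), 250 bases before to 50 bases after the start, were matched by symbol for 37 of the 43 genes. No promoter was matched for AURKA, FOXM1, BUB3, TTK, TPX2 and BIRC5. The last 120 bases before the start are printed for the 4 genes that rose in the HG group (CCNB2, CENPF, PTTG1 and CDC25C). As examples only of genes that did not pass the test, the stretches of PLK1 and PRC1 are printed as well. Each runs 5′ to 3′ on the gene's strand, with capitals on the words CCAAT and TTTGAA or their reverse complements. The regions are chr15:59105026-59105145 (plus strand) for CCNB2, chr1:214603075-214603194 (plus) for CENPF, chr5:160421735-160421854 (plus) for PTTG1, chr5:138338356-138338475 (minus) for CDC25C, chr16:23678769-23678888 (plus) for PLK1 and chr15:90994536-90994655 (minus) for PRC1.
CCNB2: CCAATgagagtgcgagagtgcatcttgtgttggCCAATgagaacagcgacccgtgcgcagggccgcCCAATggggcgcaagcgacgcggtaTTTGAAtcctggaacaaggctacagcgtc
CENPF: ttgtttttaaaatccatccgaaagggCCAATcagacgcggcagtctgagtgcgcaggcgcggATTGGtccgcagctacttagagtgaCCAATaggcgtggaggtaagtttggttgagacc
PTTG1: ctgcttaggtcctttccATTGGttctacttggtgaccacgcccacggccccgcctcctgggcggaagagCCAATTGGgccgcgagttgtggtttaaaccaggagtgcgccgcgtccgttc
CDC25C: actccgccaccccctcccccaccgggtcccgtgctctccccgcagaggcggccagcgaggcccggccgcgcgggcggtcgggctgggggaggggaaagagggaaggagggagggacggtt
PLK1: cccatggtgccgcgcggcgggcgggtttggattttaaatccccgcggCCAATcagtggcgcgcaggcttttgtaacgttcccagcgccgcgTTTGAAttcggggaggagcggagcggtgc
PRC1: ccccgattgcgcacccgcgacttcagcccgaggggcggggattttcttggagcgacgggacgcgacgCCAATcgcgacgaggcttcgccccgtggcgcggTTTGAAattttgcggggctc

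CCNB2 holds CCAAT words that begin 120 and 87 bases before the start, a further CCAAT nearer to it, and TTTGAA at 29 bases. PLK1 has a CCAAT word at 73 bases with TTTGAA at 29 bases, and PRC1 has them at 53 and 20 bases. CENPF and PTTG1 have several CCAAT words on either strand and no TTTGAA in the printed stretch. CDC25C holds neither word here or in the whole window searched. A single annotated start was used for each gene, so words near another start of CDC25C would be missed. In the 300-base windows of all 37 genes, searched on both strands, CCAAT was found in 27 (73%), against 34.6% of 35116 RefSeq promoters of the same length. A CHR word (TTTGAA or TTCGAA) was found in 27 (73%) against 16.4%, and both kinds of word in 20 (54.1%) against 6.38%. The E2F words TTTCCCGC and TTTGGCGC, typical of genes of DNA synthesis, stood in 2 windows (5.41%) against 2.27% of all promoters. Among the windows of the 4 genes that rose, 3 held CCAAT and 2 a CHR word. PLK1 and PRC1, picked as examples that did not pass the test, have a CCAAT followed by TTTGAA as CCNB2 does. Other genes not called, such as CENPE and KIF2C, held neither word in their windows. Words can overlap, as the CCAAT nearest to the start of PTTG1 does with its reverse complement, and a match is a description of letters, not of binding.

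**Figure D1:**
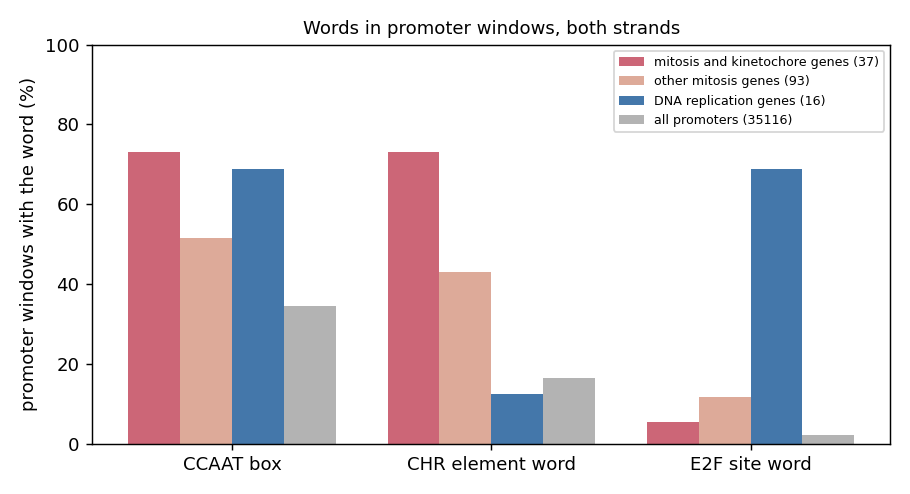
Share of promoter windows (percent, y axis) that hold a CCAAT box, a CHR word or an E2F word on either strand, for the 37 mitosis and kinetochore genes matched, 93 other mitosis genes, 16 DNA replication genes and all 35116 RefSeq promoters. CHR words are in 73% of the windows of the mitosis and kinetochore genes and 12.5% of those of the replication genes, whereas E2F words are in 5.41% and 68.8%.

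Library depth and identity were examined before the comparison. Total counts were 32448991 to 45864176 per library, and the 43 genes held 0.292% to 0.394% of them. Levels are given as normalised counts in CPM, counts scaled to an equal library size after TMM normalization. The glucose-induced gene TXNIP was at 0.809 to 1.23 CPM in the control libraries and at 5.38 to 12.9 CPM in the HG libraries, in the direction of the labels. Of the 12 RPE markers 10 passed the filter on low counts, all except RPE65 and TYR. Of these 10, KRT8, KRT18 and PMEL were called lower in the HG group (log2 fold changes of -0.62, -0.68 and -0.72, adjusted p = 0.00159, 0.00142 and 0.00854, edgeR), 0 were called higher, and PAX6, LRAT, TJP1, RLBP1, MITF, OTX2 and BEST1 were not called. BEST1 was at 264 and 551 CPM in MG1 and MG4 and at 0.577 to 7.79 CPM in the other 8 libraries, while RPE65, the isomerase of the visual cycle, had 0 counts in all libraries except MG2 (6 counts) and the pigment enzyme TYR had 0 to 34. The 10 markers of immune, endothelial, photoreceptor, glial, liver, other epithelial and stromal cells had 0 to 17 counts in any library. The control library MG2 and the library HG_1 stood apart by base composition, with log2 levels that rose with the GC content of the transcript by 0.166 and 0.184 per 10 percentage points, against -0.091 to -0.00407 in the other 8 libraries. Replicates were not duplicates of each other: every one of the 20 within-group pairs exceeded sampling noise (chi-square per row 13.2 to 78.7). Because the labels do not say whether the libraries came from separate cultures, p-values measure only the spread between these libraries.

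Few of the mitosis and kinetochore genes passed the test between the groups, and those that did were 1.23 to 1.49-fold higher in the HG group. With edgeR's quasi-likelihood test at a Benjamini-Hochberg adjusted p under 0.05 over all 14936 rows tested, 4 of the 43 genes rose in the HG group (9.3%) and 0 fell. The 4 were CDC25C, PTTG1, CCNB2 and CENPF, which encode an activating phosphatase of CDK1, securin, cyclin B2 and a large kinetochore protein. Over all rows the same rule called 15.4%, of which 7.62% were higher and 7.8% lower, so the share of these genes was below that of all rows. No member rose or fell by more than 1.5-fold with an adjusted p under 0.05, against 3.69% of all rows. At an unadjusted p under 0.05 there were 8 members, 7 higher and 1 lower, against 28.5% of all rows.

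The differences were small on the whole as well as few. Log2 fold changes were positive in 32 genes and negative in 11, with a median of 0.07 against 0.0013 over all rows tested. This tally leans on the library HG_4, which was above the control mean in 42 of the 43. Without HG_4 the median was 0.03. The median absolute log2 fold change was 0.102 in these genes and 0.15 over all rows. Within the members' range of mean level, 6.37 to 220 CPM, there were 10167 rows, of which 17.1% were called and whose median absolute log2 fold change was 0.124. The median standard error of the members was 0.0872 on the log2 scale, and the 95% interval lay within 1.5-fold in either direction for 40 of the 43. Of the 39 not called, 37 had such an interval, and the remaining genes were SPC24 and SPC25. Only CCNB2 and CDC25C were higher in every HG library than in any control library, 2 of 43, against 6.74% of all rows. No member was lower without overlap, against 6.91% of all rows.

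**Figure D2:**
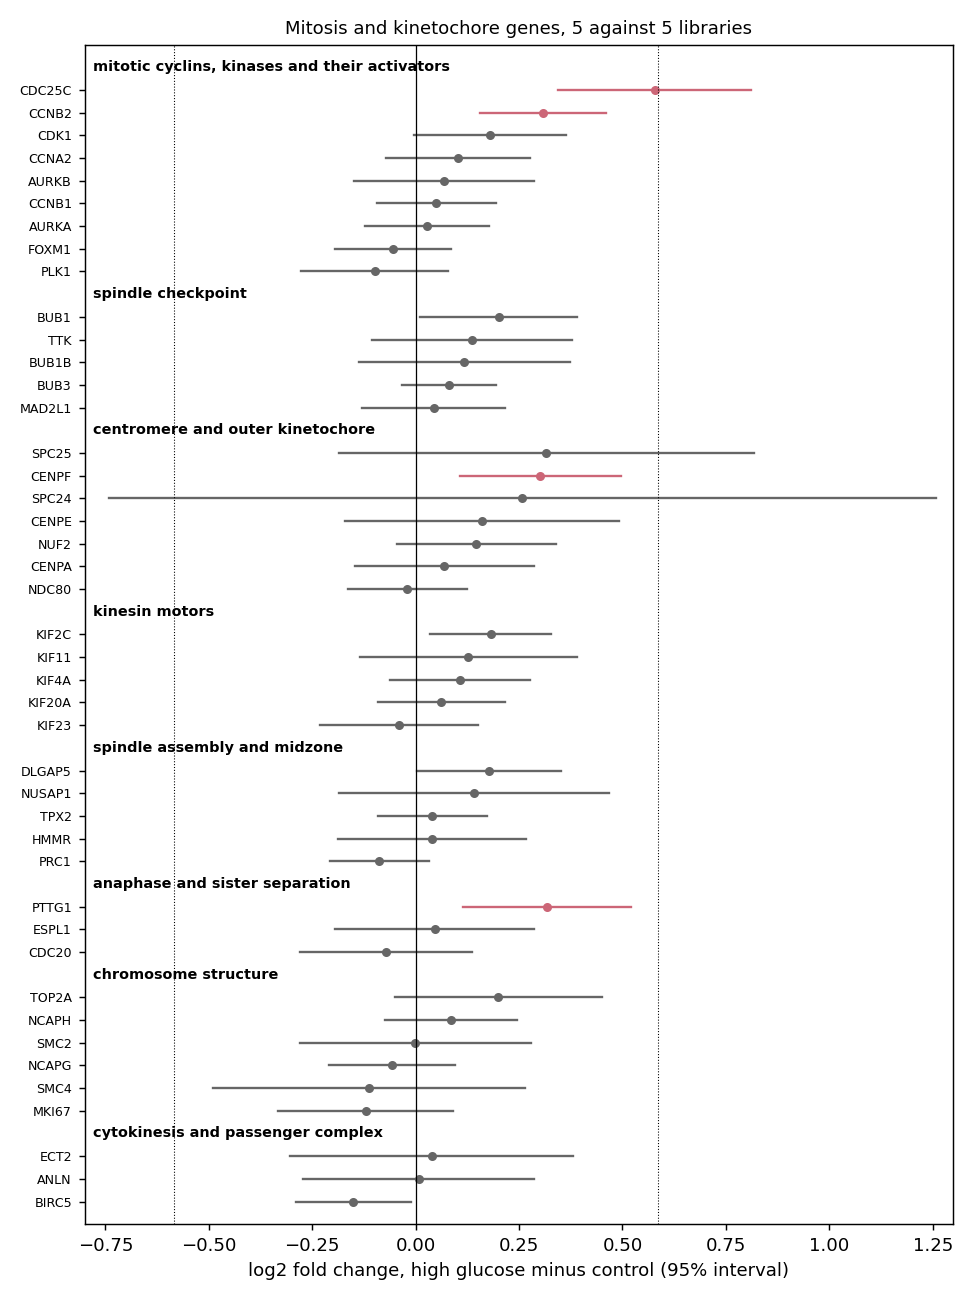
Log2 fold change (HG minus control, x axis) of each of the 43 genes with its 95% interval from edgeR, 5 libraries a group, ordered within each role. Red marks the 4 genes called at an adjusted p under 0.05, and the dotted lines mark 1.5-fold in either direction, which only the intervals of CDC25C, SPC25 and SPC24 cross.

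Levels between genes were compared per length, as FPKM. In the control group BUB3 had the highest level of the 43, with 83.8 ± 2.18 FPKM in the control group and 73.2 ± 4.9 FPKM in the HG group (mean ± SD, n = 5 each), and CCNB1 had 71.6 ± 3.81 and 74.2 ± 6.66 FPKM. The order of BUB3 and CCNB1 in the HG group rests on the FPKM of BUB3, which moved against its counts (210 ± 9.04 CPM in the control group and 222 ± 13.4 CPM in the HG group). PTTG1 (58.3 ± 5.04 and 72.7 ± 7.55), CDC20 (51.3 ± 3.4 and 49 ± 5.84) and TPX2 (43.3 ± 2.28 and 44.8 ± 4.3) came next. In the HG group BUB3, CCNB1 and PTTG1 did not differ beyond their spread. At the low end in the control group were CDC25C (4.21 ± 0.633 and 6.14 ± 0.42 FPKM), SPC25 (3.89 ± 1.21 and 4.9 ± 0.555), CENPE (3.85 ± 0.545 and 4.34 ± 0.941) and separase, ESPL1 (2.04 ± 0.176 and 2.11 ± 0.35). In the HG group the mean of BUB1B (5.59 ± 0.674 FPKM) was below that of CDC25C. All 43 were measured well above the limit that a count of 0 allows, with at least 84 counts in every library.

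Among the mitotic cyclins, kinases and their activators, 2 of 9 genes rose and 0 fell. CDC25C (ENSG00000158402, chr5:138285265-138338355, minus strand, GENCODE release 29, GRCh38) removes the inhibitory phosphates from CDK1 at mitotic entry. It was at 7.34, 10.3, 8.42, 9.44 and 9.52 CPM in MG1 to MG5 and at 15.5, 11.8, 13.4, 13.3 and 13.3 CPM in HG_1 to HG_5. The lowest HG library lay above the highest control library. The group means were 9 ± 1.15 CPM in the control group and 13.4 ± 1.33 CPM in the HG group (mean ± SD, n = 5 each), and the log2 fold change of 0.58 (SE 0.106, adjusted p = 0.00419, edgeR) corresponds to 1.49-fold. This was the largest log2 fold change of the 43 genes, from a gene with 242 to 602 counts per library.

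Cyclin B2, encoded by CCNB2 (ENSG00000157456, chr15:59105078-59125045, plus strand), is a partner of CDK1 found largely at the Golgi. It was at 46.5, 49.5, 46, 50.4 and 51.1 CPM in MG1 to MG5 and at 62.1, 52.7, 60.6, 68.5 and 57.8 CPM in HG_1 to HG_5, again without overlap. Its means were 48.7 ± 2.31 CPM in the control group and 60.3 ± 5.8 CPM in the HG group (mean ± SD, n = 5 each), a rise of 1.24-fold (log2 0.31, SE 0.0693, adjusted p = 0.0126, edgeR). Cyclin B1, CCNB1, the main cyclin of mitotic entry, was at 142, 162, 151, 157 and 158 CPM in the control libraries and at 164, 143, 153, 181 and 156 CPM in the HG libraries. The groups overlapped widely, and the log2 fold change was 0.05 with a 95% interval of -0.09 to 0.19 (adjusted p = 0.687, edgeR).

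CDK1 itself, the kinase of mitotic entry, was at 70.3, 75.3, 66.9, 79.2 and 73.1 CPM in the control libraries and at 68.7, 77.2, 87, 94.2 and 86.2 CPM in the HG libraries. HG_1 and HG_2 were within the control range and HG_3 to HG_5 were above it, and the log2 fold change of 0.18 did not pass the test (95% interval -0.0041 to 0.36, adjusted p = 0.186, edgeR). CDK1 was called without HG_1 (0.24, adjusted p = 0.0289, edgeR), and its log2 fold change was 0.10 after the GC and length correction. PLK1, a kinase needed for centrosome maturation and cytokinesis, had the lowest log2 fold change of this role at -0.10 (95% interval -0.28 to 0.08, adjusted p = 0.479, edgeR). It was at 87.4, 107, 92.1, 96.2 and 92.6 CPM in the control libraries and at 97.9, 74.3, 90, 95.9 and 85.5 CPM in the HG libraries, with wide overlap. AURKB, the kinase of the chromosomal passenger complex that corrects faulty attachments, was at 25.4, 34.4, 28.1, 25.2 and 27.8 CPM against 33.2, 27.8, 29.4, 31.6 and 25.8 CPM. MG2 and HG_1 were the highest libraries of AURKB in their groups, and its log2 fold change was 0.07 (SE 0.0985, adjusted p = 0.721, edgeR). FOXM1, the transcription factor that activates many of these genes, was at 147, 150, 142, 157 and 147 CPM and at 153, 127, 139, 160 and 137 CPM. The groups overlapped, with a log2 fold change of -0.05 (SE 0.0633, adjusted p = 0.638, edgeR).

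In the spindle checkpoint, which holds anaphase until all kinetochores are attached, 0 of 5 genes were called. From the counts all 5 log2 fold changes were positive, from 0.04 for MAD2L1, whose product binds and inhibits CDC20, to 0.20 for the kinase BUB1 (unadjusted p = 0.0408, adjusted p = 0.154, edgeR), which was called higher only when HG_1 was left out. BUB1B, which encodes the checkpoint protein BUBR1, was at 21.6, 16.4, 17.8, 21.2 and 24.5 CPM in the control libraries and at 19.5, 22.1, 20.3, 25.7 and 22.5 CPM in the HG libraries. Its groups overlapped, with a log2 fold change of 0.12 (95% interval -0.14 to 0.37). BUB3, the shared partner of BUB1 and BUBR1, was singled out after its values were seen, because its direction depended on the file. From the counts its log2 fold change was 0.08 (SE 0.0515, adjusted p = 0.343, edgeR). From the deposited FPKM it was -0.19 (adjusted p = 0.025, limma on log2(FPKM + 1)), with 80.9 to 85.5 FPKM in the control libraries and 67.5 to 80.7 FPKM in the HG libraries. It was called higher from the counts without MG2 and HG_1 (0.09, adjusted p = 0.0465, edgeR), so no direction is given for BUB3.

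Of 7 genes of the centromere and outer kinetochore, 1 rose. CENPF (ENSG00000117724, chr1:214603195-214664588, plus strand) encodes a very large protein that gathers at the outer kinetochore late in G2 and binds microtubules and dynein regulators. It was at 134, 128, 149, 147 and 152 CPM in MG1 to MG5 and at 143, 169, 178, 205 and 182 CPM in HG_1 to HG_5. HG_2 to HG_5 lay above every control library and HG_1 lay within their range. Means were 142 ± 10.2 CPM in the control group and 175 ± 22.6 CPM in the HG group (mean ± SD, n = 5 each), 1.23-fold higher (log2 0.30, SE 0.0886, adjusted p = 0.0422, edgeR). The call was kept in 5 of 18 alternatives, over which the adjusted p ranged from 0.00201 to 0.103, and leaving out any single library except HG_1 ended it.

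The other 6 genes of this role ran from -0.02 for NDC80, the subunit that grips the microtubule, to 0.32 for SPC25, a subunit of the same NDC80 complex. SPC25 had 84 to 333 counts per library and an interval of -0.19 to 0.82, and MG4 was at 2.54 CPM where the other control libraries were at 6.09 to 6.97 CPM. SPC24, its direct partner in the complex, is named after its values were seen. Its counts fell into separate levels, 6.83 and 8.26 CPM in MG3 and MG4 and 6.78 CPM in HG_3, against 19.6 to 30.1 CPM in the other 7 libraries, whereas its FPKM lay between 8.46 and 12.8 in every library. Its interval of -0.74 to 1.26 is the widest of the 43. CENPA, the histone H3 variant that marks the centromere, had a log2 fold change of 0.07 and was not called.

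Among the 5 kinesin motors, 0 were called, and log2 fold changes ran from -0.04 for KIF23, a motor of the central spindle, to 0.18 for KIF2C, a depolymerase that removes wrongly attached microtubules. KIF2C had an unadjusted p of 0.0199, the smallest of the genes that were not called (adjusted p = 0.0948, edgeR). KIF11, the motor that pushes the spindle poles apart, was at 63, 51.8, 58.8, 65.3 and 64.5 CPM in the control libraries and at 50.2, 65.4, 61.2, 81.7 and 73 CPM in the HG libraries. Its lowest library was HG_1 and its highest HG_4, so the HG group spanned the whole control range (log2 fold change 0.13, 95% interval -0.14 to 0.39).

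Spindle assembly and midzone proteins were 5, with 0 called. TPX2, which activates AURKA and nucleates microtubules near chromosomes, was at 161, 154, 159, 172 and 168 CPM in the control libraries and at 155, 159, 164, 191 and 170 CPM in the HG libraries. The groups overlapped and the log2 fold change was 0.04 (95% interval -0.09 to 0.17). The role ran from -0.09 for PRC1, the protein that bundles microtubules of the midzone, to 0.18 for DLGAP5, a stabiliser of kinetochore fibres (unadjusted p = 0.0452, adjusted p = 0.165, edgeR). PRC1 and NUSAP1 share 62.2% and 62.9% of their 100-base windows with overlapping readthrough loci, and reads in those windows cannot be assigned to 1 locus by sequence alone.

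Of the 3 genes of anaphase and sister separation, PTTG1 rose. PTTG1 (ENSG00000164611, chr5:160421822-160428744, plus strand) encodes securin, the inhibitor of separase that the anaphase-promoting complex destroys. It was at 45.1, 58, 48.8, 51.8 and 47.9 CPM in MG1 to MG5 and at 73.4, 57.3, 59.1, 68.2 and 55.7 CPM in HG_1 to HG_5. MG2 lay above HG_2 and HG_5, and the other control libraries lay below every HG library. The means were 50.3 ± 4.9 CPM in the control group and 62.7 ± 7.66 CPM in the HG group (mean ± SD, n = 5 each), 1.25-fold higher (log2 0.32, SE 0.0924, adjusted p = 0.0405, edgeR). The call was kept in 11 of 18 alternatives and was lost without MG1, MG3, MG4, MG5, HG_1, HG_3 or HG_4, with adjusted p of 0.0531 to 0.0979 there. ESPL1, separase itself, had a log2 fold change of 0.05. CDC20, the activator of the anaphase-promoting complex, was at 88.9, 106, 88.6, 89.1 and 93.4 CPM in the control libraries and at 105, 71.4, 87.2, 93 and 87.2 CPM in the HG libraries, which overlapped (log2 fold change -0.07, 95% interval -0.28 to 0.14).

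Chromosome structure comprised 6 genes with 0 called and the only negative median of log2 fold change of any role, -0.03. TOP2A, the topoisomerase that untangles sister chromatids, had the highest value of this role. It was at 216, 173, 201, 214 and 220 CPM in the control libraries and at 172, 246, 238, 273 and 248 CPM in the HG libraries. HG_1 was as low as MG2, and the other 4 HG libraries were above every control library (log2 fold change 0.20, 95% interval -0.05 to 0.45, adjusted p = 0.283, edgeR). TOP2A was called without HG_1 (0.30, adjusted p = 0.0176, edgeR). MKI67, which coats mitotic chromosomes and is the common marker of cycling cells, had the lowest, at 159, 139, 154, 168 and 165 CPM against 118, 138, 138, 173 and 156 CPM. The groups overlapped, with a log2 fold change of -0.12 (95% interval -0.33 to 0.09). The condensin genes SMC2, SMC4, NCAPG and NCAPH were not called.

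In the role of cytokinesis and the passenger complex, 0 of 3 genes were called. BIRC5, survivin, which anchors the passenger complex at centromeres, was the only member lower at an unadjusted p under 0.05 in edgeR's test (unadjusted 0.0375, adjusted p = 0.146). It was at 81, 87.5, 75.8, 85.7 and 84.4 CPM in the control libraries and at 76.5, 66.1, 73.4, 82.5 and 75 CPM in the HG libraries. HG_1 and HG_4 lay within the control range, and the log2 fold change was -0.15 with an interval of -0.29 to -0.0104. ANLN, a scaffold of the contractile ring, and ECT2, the exchange factor that activates RhoA there, had log2 fold changes of 0.0081 and 0.04, with intervals of -0.27 to 0.29 and -0.30 to 0.38.

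**Figure D3:**
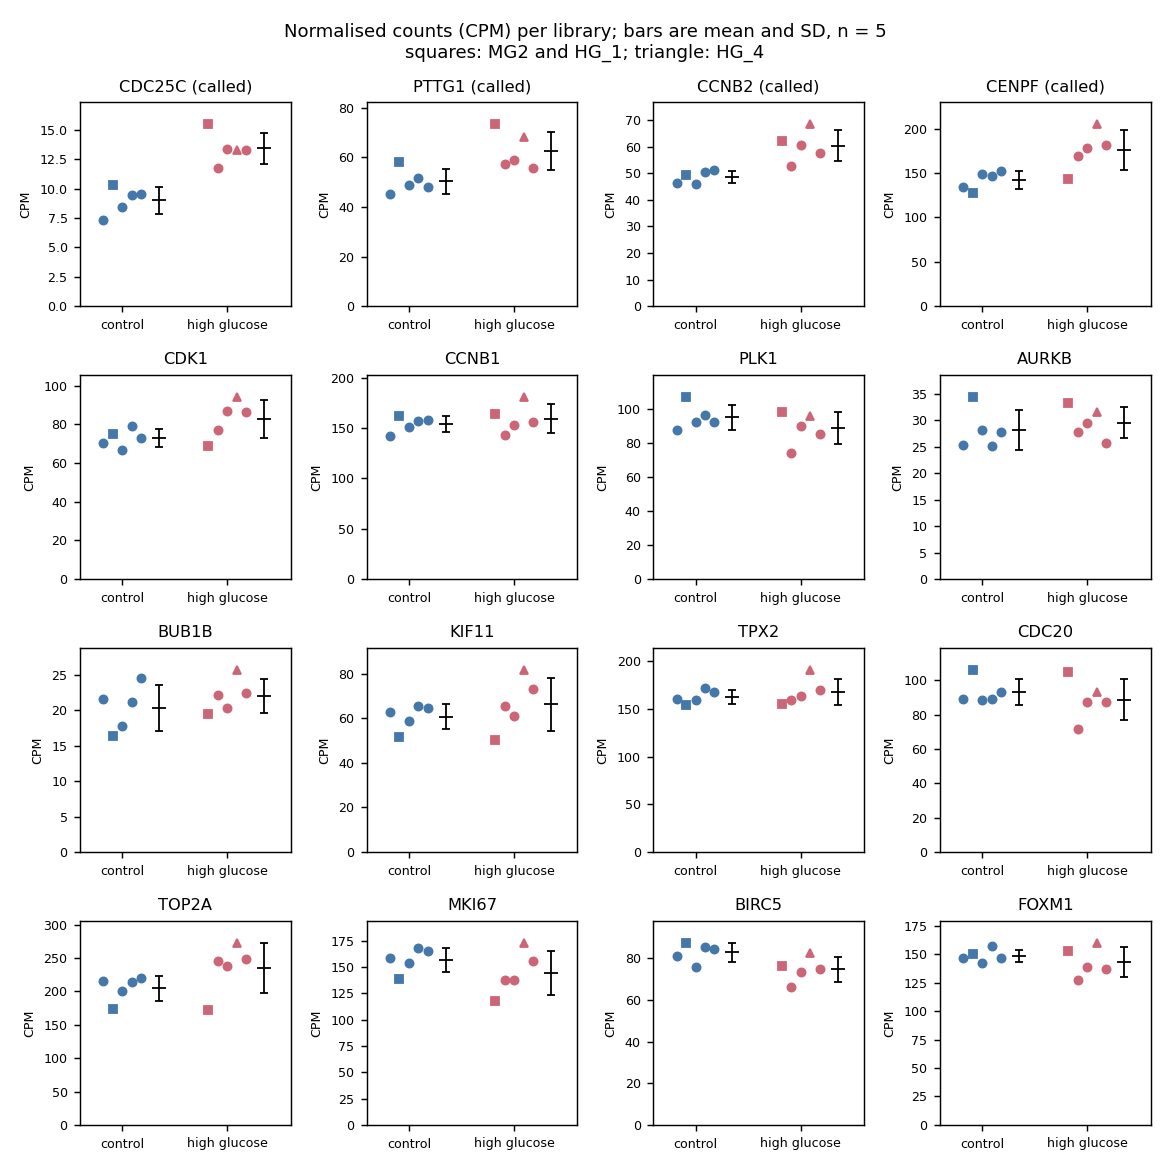
CPM (y axis, from 0) in each of the 10 libraries for the 4 genes called and 12 further genes, control in blue and HG in red, with bars for mean and SD (n = 5). Squares mark MG2 and HG_1 and the triangle marks HG_4. CDC25C and CCNB2 are the panels in which the groups do not overlap, and HG_4 is at or near the top of most HG groups.

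In 1 HG library, HG_4, nearly all of the 43 genes were high. HG_4 was the highest of the 5 HG libraries in 36 of the 43 (83.7%), against 18.5% of all rows tested, and was above the control mean in 42. It was the highest of all 10 libraries in 34. Among the other mitosis genes described below HG_4 was the highest HG library in 57 of 109, and among the DNA replication genes in 11 of 20. HG_1 was the lowest HG library in 23 of the 43 and the highest in 6, against 36.1% and 37.4% of all rows. MG2 was the lowest control library in 19 and the highest in 13, against 34.1% and 33.3% of all rows. The summed level was 3090 to 3380 CPM in the control group (3250 ± 126) and 3030 to 3890 CPM in the HG group (3390 ± 321, mean ± SD, n = 5 each), so the HG libraries spanned more than the whole control range. Without HG_4 the median log2 fold change of the 43 was 0.03, and without HG_1 it was 0.11. In bulk RNA, more cells in mitosis and more RNA per cell cannot be told apart.

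The spread followed base composition in MG2 and HG_1. The 21 genes with the lower GC content (35.3% to 42.5%) were below the mean of their own group by a median of -0.14 in MG2 and -0.26 in HG_1 on the log2 scale. The 22 genes with the higher GC content (42.6% to 57.9%) deviated by 0.09 and 0.04 in the same libraries. In HG_4 both sets were above their group's mean, by 0.25 and 0.19. Without MG2 and HG_1 together, 9 of the 43 were called, all higher: the 4 above with BUB3, CDK1, DLGAP5, KIF2C and TOP2A, and 4035 of all rows were called then in place of 2303. When the dependence of every library on GC content and transcript length was removed, 6 were called, the 4 above with KIF2C and TOP2A, and 28% of the 13538 rows that could be corrected. CCNB2 and CDC25C were called in all 18 alternatives tried.

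**Figure D4:**
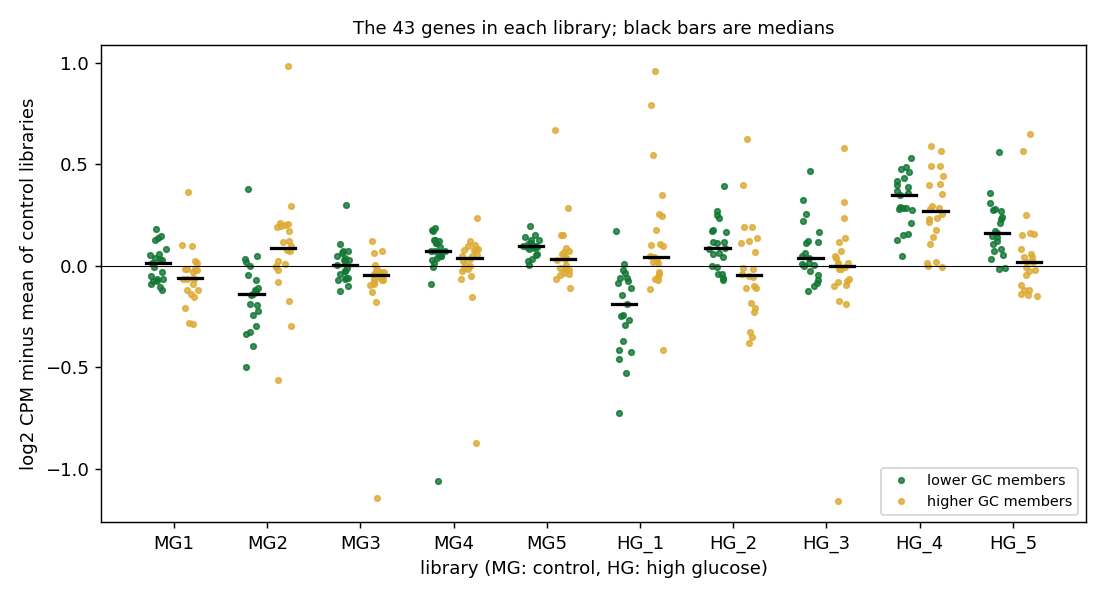
Log2 CPM of each of the 43 genes minus its mean over the control libraries (y axis), by library (x axis), with the 21 genes of lower GC content in green, the 22 of higher GC content in yellow and black bars for medians. HG_4 is shifted upward in both sets, whereas in MG2 and HG_1 the genes of lower GC content lie below those of higher GC content.

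The rest of the mitotic machinery was read from lists of 109 further genes. Of these, 9 were called (8.26%), 4 higher and 5 lower, against 15.4% of all rows, and their median log2 fold change was -0.03. With DESeq2 16 of the 109 were called, and 3069 of 22626 rows. With a library left out 6 to 21 were called, and 1648 to 2993 of all rows. The gap from all rows therefore depends on the setting. Of 15 genes of the inner centromere network, CENPH rose (0.31, adjusted p = 0.0226, edgeR) and CENPO fell (-0.29, adjusted p = 0.0275, edgeR). The CENPH call was lost without MG1, MG3, MG5, HG_4 or HG_5 (adjusted p of 0.052 to 0.0561, edgeR), and the CENPO call without MG1, MG4, MG5, HG_2, HG_3 or HG_5 (0.0568 to 0.0722). Of 15 other kinetochore proteins, SPDL1, an adaptor of dynein, fell (-0.35, adjusted p = 0.0144, edgeR), a call lost with limma on log2(FPKM + 1) and log2(FPKM + 0.1) (adjusted p = 0.0537 and 0.0521). Of 18 genes of the anaphase-promoting complex, ANAPC16, a small subunit, rose (0.27, adjusted p = 0.00595, edgeR). The 15 genes of cohesin and its regulators gave 0 calls with edgeR and 1 at an unadjusted p under 0.05.

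Among 29 further motors, spindle and division factors, NEK2 and BORA rose and 0 fell. NEK2, the kinase that splits the centrosome pair, had means of 23.7 ± 1.96 CPM in the control group and 32 ± 2.78 CPM in the HG group (SD, n = 5 each), with no overlap and a log2 difference of 0.43 (SE 0.0773, adjusted p = 0.00387, edgeR). BORA, which helps AURKA to activate PLK1, rose by 0.34 on the log2 scale (adjusted p = 0.0232, edgeR), a call lost without HG_2 or HG_3 (adjusted p = 0.0592 and 0.0542). Of 17 switches of mitotic entry and regulators of mitotic genes, 3 fell and 0 rose. MYBL2, which encodes the B-MYB of the activating complex at CHR elements, had means of 76.2 ± 7.63 CPM and 42.3 ± 3.82 CPM, with a log2 difference of -0.85 (SE 0.0812, adjusted p = 0.000131, edgeR), and its lowest control library, at 71.1 CPM, was above its highest HG library, at 48.4 CPM. CDC25A, a relative of CDC25C that also acts at entry into DNA synthesis, fell (-0.35, adjusted p = 0.00537, edgeR), as did CCNF, cyclin F (-0.23, adjusted p = 0.0221, edgeR). The CCNF call was lost in 9 of 18 alternatives, namely with limma on FPKM in all 3 forms, after the GC and length correction, and without MG4, MG5, HG_2, HG_3 or HG_5 (adjusted p of 0.0529 to 0.0693). So CDC25A and CDC25C were called in opposite directions in the same libraries.

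DNA replication genes, the other large set of cell cycle genes, are given for contrast. Their list was fixed with earlier results of these data known, so the shares below are not an independent contrast. Of 20, 13 fell and 0 rose (65%), with a median log2 fold change of -0.33, and all 13 were lower without overlap, against 7.8% of all rows called lower and 6.91% lower without overlap. DESeq2 called 13 lower and 1 higher. MCM6 and MCM3, named for the smallest p of the list, are subunits of the replicative helicase. Their log2 fold changes were -0.67 and -0.48 (adjusted p = 6.97e-05 and 0.000321, edgeR). Of the 20, 4 had positive log2 fold changes, the highest being 0.15 for PCNA (adjusted p = 0.078, edgeR). The summed level of the 20 was 1490 to 1610 CPM in the control group and 1250 to 1440 CPM in the HG group, without overlap, whereas that of the 43 mitosis and kinetochore genes overlapped. The difference between the sets was not tested.

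**Figure D5:**
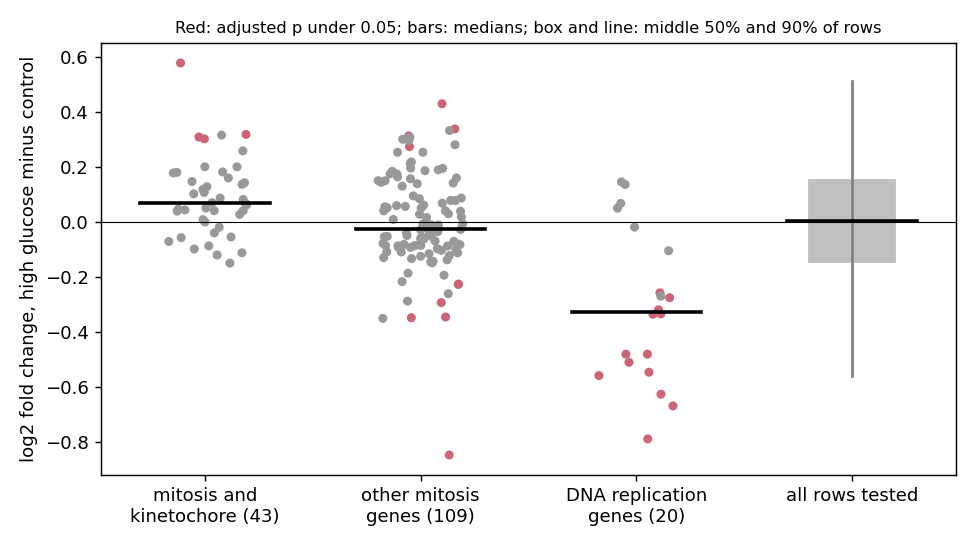
Log2 fold change (HG minus control, y axis) of each mitosis and kinetochore gene (43), other mitosis gene (109) and DNA replication gene (20), with called genes in red and black bars for medians, beside the middle 50% (box) and 90% (line) of all rows tested. Medians are 0.07, -0.03 and -0.33, and the 4 red points of the first set are all above 0.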

How the data were processed

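RNA of 10 ARPE-19 samples was sequenced. The authors deposited whole-number counts per gene and library, without normalization, and FPKM values of the same libraries, in tables of 22626 rows each. The submitters' processing notes name fastp 0.20.1, HISAT2 2.2.1 and GRCh38. FPKM is a unit per transcript length and library size; how the authors computed it is not given in the sources used here, and for BUB3 and SPC24 the ratio of FPKM to CPM differs between libraries. The counting program, its strand setting and the annotation are not given in the sources used here. The members and all gene lists were chosen with earlier results of these data known.

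The comparison used edgeR 4.0.16 in R 4.3.3 on the counts of all 10 libraries: the default filter on low counts (14936 rows kept), TMM, the quasi-likelihood test and Benjamini-Hochberg adjustment over all rows tested. CPM of single libraries use TMM library sizes, and log2 CPM a prior count of 2. A gene is called at an adjusted p under 0.05. Positions, GC content and transcript lengths came from GENCODE release 29. Per-library values are given for called members and for 12 more fixed by name as representatives of their roles; other members by role, with the lowest and highest log2 fold change of each role; from other lists, called genes. BUB3 and SPC24 were added after their values were seen.

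Alternatives were DESeq2 1.42.0, RLE size factors, no filter on low counts, limma 3.58.1 on log2 FPKM with a pseudocount of 1, with 0.1, and over rows with a mean of at least 1 FPKM, a correction for GC content and transcript length (lowess, span 0.3), omission of MG2 and HG_1 together, and omission of each library in turn. The steps were tested on simulated data. Promoters were searched in RefSeq sequence (GRCh38.p14). A count of 0 allows up to 3 counts, here 0.0654 to 0.0925 CPM, for counting error only.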

Additional observations from a re-analysis of the deposited data

Results flagged for a closer look

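In each group of 5 libraries the highest and lowest value of every one of the 43 genes was compared with its nearest neighbour. A gap above 0.71 of the group's range, Dixon's 95% critical value for 5 samples, set 14 of 86 groups apart. Chance alone sets about 1 in 20 groups apart, which is 4.3 of 86, and genes that move together are not independent groups.

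Of the 14, 9 lay in MG2, the control library whose levels rose with GC content. It was low for BUB3 at 194 CPM (210 to 216 CPM in the other control libraries), for NUSAP1 at 20.2 CPM (31.4 to 35.1), for the condensin genes SMC2 at 62.4 CPM (80.6 to 86.2), SMC4 at 88.4 CPM (131 to 141) and NCAPG at 56 CPM (61.8 to 63.2), and for the cytokinesis genes ANLN at 126 CPM (158 to 169) and ECT2 at 68.7 CPM (93.7 to 102). It was high for KIF2C at 59.4 CPM (48.8 to 51.4) and CDC20 at 106 CPM (88.6 to 93.4).

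HG_4 was high for the kinesins KIF20A at 111 CPM (88.2 to 94.2 CPM in the other HG libraries) and KIF4A at 54 CPM (40.6 to 42.4) and for separase, ESPL1, at 19.2 CPM (13.5 to 14.7). MG4 was high for AURKA at 76.7 CPM (69.3 to 71.3) and low for SPC25 at 2.54 CPM (6.09 to 6.97). None of the 14 belongs to CDC25C, PTTG1, CCNB2 or CENPF.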

How the results depend on the processing

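CCNB2 and CDC25C were called higher in all 18 alternatives, and no count-based alternative called a member lower. Called members numbered 9 without MG2 and HG_1, and 2 to 7 with a single library left out (7 without HG_1, 2 without MG1, MG3, MG4, MG5, HG_3 or HG_4), while the calls over all rows moved between 1648 and 2993, the latter also without HG_1. With a fold above 1.5 they numbered 0 to 1 with a library left out, the 1 being CDC25C. The other mitosis genes called numbered 16 with DESeq2, 28 after the GC and length correction, 29 without MG2 and HG_1, and 6 to 21 with a library left out (21 without HG_1). Of all rows, 3069 were called with DESeq2, 3797 after the correction and 4035 without MG2 and HG_1. Direction changed for CCNB1 after the correction (-0.0118) and without HG_4 (-1e-04 to 0.0876 over the libraries left out), and for TPX2 without HG_4 (-0.0102 to 0.0704). With limma on FPKM it changed for BUB3 (-0.1942, -0.1965 with a pseudocount of 0.1, and -0.1942 with the FPKM minimum) and for SPC24 (-0.0738, -0.0797 and -0.0738 in the same order). After the correction AURKA (-0.0188), HMMR (-0.0096) and ANLN (-0.0089) also turned negative. The cause was not tested. None of these was called except BUB3, which was called lower from FPKM and higher without MG2 and HG_1. DNA replication genes called numbered 11 to 14 in all alternatives. No paired analysis was possible because the labels name the HG samples by letters and nothing ties the numbers of the deposited columns to shared cultures or days. SPC25, at 84 to 333 counts, and SPC24, whose counts and FPKM diverge, are the least certain of the 43.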
